A study of Caenorhabditis elegans with 2 samples.

Results

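The piRNA cluster domains of chromosome IV of Caenorhabditis elegans are a pair of broad stretches in which most of the worm's piRNA genes lie. They were taken here as 4500 to 7000 kb (the left domain) and 13500 to 17200 kb (the right domain) of the ce11 assembly. Their members are all regions of a chromatin immunoprecipitation sequencing (ChIP-seq) list for the zinc-finger protein ZIM-3 whose summit fell within these limits. There were 1009 such regions of 30000 in the whole list, 564 in the left domain and 445 in the right domain. They were set beside the 1936 regions of the middle of the same chromosome, from 7000 to 13500 kb.

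The worms were of strain OP581, which carries the unc-119(tm4063) III allele and the transgene wgIs581, from which ZIM-3 is made with a GFP-FLAG tag at its C-terminus. Chromatin of whole young adults of mixed sex, 54.5 h after release from starvation as L1 larvae, was sonicated and precipitated with an antibody against GFP. There were 2 biological replicates of this 1 group, both with the allele and the transgene, and no untagged or input sample was analysed here, although each list was made against a control library per the deposited file descriptions. Whole animals were used, so a region present in few cells cannot be told apart from one weakly bound in many.

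A piRNA of C. elegans, also called a 21U-RNA, is a germline small RNA that guides the Argonaute protein PRG-1 to foreign and self transcripts. Most piRNAs are transcribed by RNA polymerase II from short genes of their own, which crowd into the domains of chromosome IV, begin with U and have a conserved upstream element, the Ruby motif. ZIM-3 is known as a meiotic protein that binds the pairing centres of chromosomes I and IV, where homologous chromosomes find each other, and no role for it at piRNA genes is assumed here.

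The annotation bore out the name of the domains. Of the 14714 piRNA genes on IV, 14204 (96.5%) began within them, 2816 in the left and 11388 in the right domain, against 304 in the middle of IV. This came to 2291 piRNA genes per Mb in the domains and 46.8 per Mb in the middle. The limits also took in stretches with few piRNA genes: 9 of the 62 stretches of 100 kb held at most 50 of them. The first base of the annotated gene was T in 96.2% of the domains' piRNA genes, and the core of the Ruby motif, CTGTTTCA, lay 20 to 80 bases upstream on the gene's strand in 34.9% of them.

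The following piRNA genes are shown as examples because each lay within 100 bp of a member and had that motif upstream. The domains held 34 such genes, and those shown lie beside members named below. They are printed 5′ to 3′ on the strand of the gene, from the WBcel235 sequence (ce11), and capitals mark the motif and then the piRNA.
21ur-7908 (chrIV:6641568-6641663, + strand): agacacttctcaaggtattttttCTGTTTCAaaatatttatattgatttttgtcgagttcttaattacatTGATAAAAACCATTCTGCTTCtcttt
21ur-4573 (chrIV:14482853-14482948, + strand): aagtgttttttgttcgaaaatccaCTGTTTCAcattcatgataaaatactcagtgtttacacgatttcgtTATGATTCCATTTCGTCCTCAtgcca
21ur-15486 (chrIV:14615937-14616032, + strand): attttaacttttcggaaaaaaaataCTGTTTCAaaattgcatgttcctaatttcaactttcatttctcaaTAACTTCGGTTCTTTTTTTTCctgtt
21ur-10097 (chrIV:14222535-14222630, - strand): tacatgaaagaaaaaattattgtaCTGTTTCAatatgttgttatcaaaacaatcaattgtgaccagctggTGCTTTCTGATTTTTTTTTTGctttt

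In these genes 37 to 39 bases separated the motif from the piRNA, and the sequence around both was rich in A and T. The next stretch is shown for the opposite reason: it is the one with the most piRNA genes in 251 bases among those with no region of the pooled list or of either replicate list within 1 kb. It held 7 annotated piRNA genes, which overlap and lie on both strands, so that their capitals run together into 2 blocks. The motif occurred once, in lower case, upstream of the first block.
dense piRNA stretch (chrIV:13707474-13707724, + strand): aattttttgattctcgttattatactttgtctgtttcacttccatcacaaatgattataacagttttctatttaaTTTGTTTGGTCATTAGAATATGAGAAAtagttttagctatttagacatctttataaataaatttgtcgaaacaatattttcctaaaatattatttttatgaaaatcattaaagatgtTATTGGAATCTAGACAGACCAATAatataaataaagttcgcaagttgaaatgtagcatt

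The next sequences are of members with a high signal. The 4 windows of 151 bp are centred on summits at a promoter, 2 tRNA genes and a microRNA gene. All 4 are among the 10 highest members of their domain, and they are shown as examples of these kinds of gene; the promoter is the highest member of both domains, and other members were higher than the tRNA genes shown. Capitals mark the tRNA gene or the microRNA hairpin. The promoter has no capitals because it holds neither.
upstream of sqd-1 (chrIV:6323780-6323930, + strand): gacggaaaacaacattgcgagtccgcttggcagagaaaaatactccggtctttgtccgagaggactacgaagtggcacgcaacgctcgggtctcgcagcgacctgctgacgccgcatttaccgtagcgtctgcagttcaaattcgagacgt
tRNA gene WBGene00022903 (chrIV:5967116-5967266, + strand): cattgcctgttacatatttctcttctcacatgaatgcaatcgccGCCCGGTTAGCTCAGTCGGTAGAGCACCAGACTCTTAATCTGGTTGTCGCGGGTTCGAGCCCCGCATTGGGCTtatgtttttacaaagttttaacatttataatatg
tRNA gene WBGene00014599 (chrIV:16400861-16401011, + strand): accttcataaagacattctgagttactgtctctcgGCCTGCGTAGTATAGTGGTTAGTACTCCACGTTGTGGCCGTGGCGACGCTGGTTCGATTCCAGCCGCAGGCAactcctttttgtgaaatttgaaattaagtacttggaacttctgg
cel-mir-52 (chrIV:14033969-14034119, + strand): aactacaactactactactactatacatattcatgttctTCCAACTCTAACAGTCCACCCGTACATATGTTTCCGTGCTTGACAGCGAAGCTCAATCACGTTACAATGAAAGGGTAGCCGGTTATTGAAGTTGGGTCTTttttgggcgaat

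Each list holds 30000 regions, peaks and background together, so most entries are weak. A summit is the point within a region where the authors placed its maximum. The signal is the authors' deposited height of a region, used only within a list because its scale differs between lists. All 1009 members were 376 bp wide. Of them, 503 (49.9%) had another member within 1 kb, and neighbouring regions are not independent of each other. Intervals are exact 95% binomial (Clopper-Pearson) ones, and they speak only for the error of counting regions. No test was made over regions.

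The domains held fewer regions per Mb than the middle of the chromosome between them, and the shortfall was larger where piRNA genes were denser. Per Mb there were 163 regions in the domains and 298 in the middle of IV, a ratio of 0.546. The list of replicate 1 gave 176 per Mb in the domains and 294 per Mb in the middle, a ratio of 0.599. The list of replicate 2 gave 155 and 310.0 per Mb in the domains and the middle, a ratio of 0.498. The right domain, the richer in piRNA genes, was the sparser in regions in all 3 lists: its pooled density was 120.3 per Mb, and that of the left domain was 226 per Mb.

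Along the domains, stretches with more piRNA genes held fewer regions. In the 9 stretches of 100 kb with at most 50 piRNA genes the median was 27 pooled regions, and it was 17.5 in the 10 stretches with 51 to 150. The median was 16 in the 24 stretches with 151 to 300 piRNA genes and 8 in the 19 stretches with more than 300. The 65 stretches of the middle of IV, none with more than 21 piRNA genes, had a median of 29. The last class of the domains, with at most 16 pooled regions in any stretch, lay wholly below that median.

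Over the 62 stretches of the domains, Pearson's r between piRNA genes and pooled regions was -0.71. It was -0.73 with the regions of replicate 1 and -0.73 with those of replicate 2. Within the left domain alone r was -0.48 over 25 stretches, and within the right domain alone it was -0.66 over 37. The relation was also negative in the middle of IV, with at most 21 piRNA genes in any of its 65 stretches. There r was -0.40 in the pooled list, -0.39 in replicate 1 and -0.37 in replicate 2. These values are descriptions, since neighbouring stretches share their base composition and the lists share their libraries. Pooled regions also followed GC content, with an r of 0.83 over the same 62 stretches, 0.74 within the left and 0.80 within the right domain. In the middle of IV it was 0.68. With the number of protein-coding starts r was 0.43 over the 62 stretches and 0.49 within the right domain, but 0.0024 within the left, where replicate 1 gave -0.010 and replicate 2 gave -0.049.

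**Figure D1:**
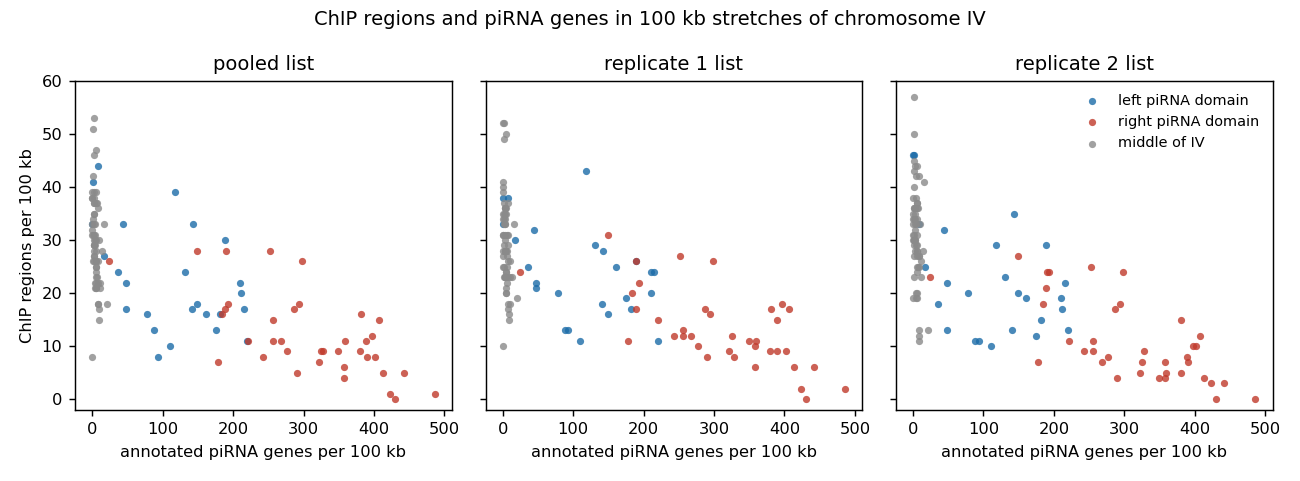
Each point is a stretch of 100 kb on chromosome IV; the x axis counts annotated piRNA genes that start in it and the y axis counts ChIP regions with their summit in it, for the pooled list and each replicate list. Blue points are the left domain, red points the right domain and grey points the middle of IV. In all 3 panels the stretches with over 300 piRNA genes, all of them red, lie at the bottom, with at most 16 regions in the pooled list, 18 in replicate 1 and 15 in replicate 2.

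The emptiest stretches were in the right domain. One stretch of 100 kb (chrIV:15300001-15400000) held 430 piRNA genes and 11 protein-coding starts but no region of the pooled list, of replicate 1 or of replicate 2. The 100 kb with the most piRNA genes (chrIV:16000001-16100000) held 486 of them and 2 protein-coding starts, with 1 pooled region, 2 regions of replicate 1 and none of replicate 2. It is part of the longest gap between neighbouring summits of the domains, 156289 bp with 710 piRNA genes (chrIV:16005383-16161672). The longest gap of the left domain was 70030 bp, and that of the middle of IV was 49227 bp.

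The stretches of the left domain with the most pooled regions lay near its outer limit, though the stretch that adjoins the limit, chrIV:4500001-4600000, held 33 and no piRNA gene. There were 44 in chrIV:4700001-4800000, which has 8 piRNA genes, and 41 in chrIV:4600001-4700000, which has 1. The left domain also had a dense stretch with many piRNA genes: 39 pooled regions beside 118 piRNA genes in chrIV:5300001-5400000, with 43 regions in replicate 1 and 29 in replicate 2.

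At the scale of single genes the number of summits was also lower towards piRNA genes. Of the members, 80 (7.93%) had a summit within 100 bp of a piRNA gene, while 31.9% of the bases of the domains lay that close, a ratio of 0.249. The ratio was 0.313 in the list of replicate 1 and 0.183 in that of replicate 2. Summits were thus scarce beside piRNA genes in every list. In the pooled list they numbered 53.5 per Mb within 25 bp of a piRNA gene, 29.5 per Mb from 25 to 50 bp and 35.5 per Mb from 50 to 100 bp. This uneven order within 100 bp was not that of the replicate lists: the same classes had 53.5, 50.6 and 59.2 per Mb in replicate 1 and 26.1, 33.7 and 27.6 per Mb in replicate 2. Nor was it the same in both domains, with 57.4, 83.9 and 78.1 pooled summits per Mb in the left and 52.5, 13.6 and 21.1 per Mb in the right. Pooled density was 71.5 per Mb from 100 to 200 bp, 167 per Mb from 200 to 400 bp and 320.5 per Mb from 1600 to 3200 bp. Beyond 6400 bp it was 376 per Mb, which is above the 337.5 per Mb at the same distances in the middle of IV. In the middle, density was also lower towards piRNA genes. It was 252 per Mb from 1600 to 3200 bp and 156 per Mb from 200 to 400 bp, on 17 summits. Within 100 bp of a piRNA gene lay 0.517% of the regions of the middle, 10 summits, and 0.990% of its bases. A lower density towards piRNA genes was thus not particular to the domains.

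**Figure D2:**
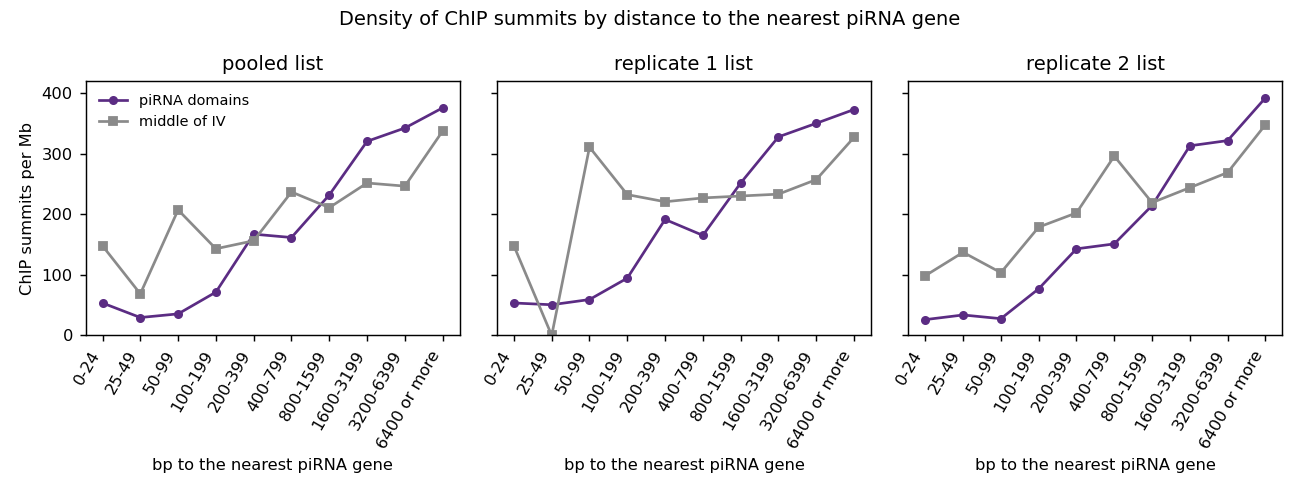
ChIP summits per Mb of sequence (y axis) at increasing distance in bp from the nearest piRNA gene (x axis, classes that grow by doubling) in the piRNA domains (purple circles) and the middle of IV (grey squares), for each list. In the domains the pooled density is 53.5 per Mb nearest to piRNA genes and 376 per Mb farthest from them; the grey points nearest to piRNA genes rest on 1 to 8 pooled summits each.

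Away from piRNA genes the domains were about as densely covered as the middle of the chromosome. Over 500 bp from every piRNA gene there were 300.6 pooled summits per Mb in the domains and 303 per Mb in the middle of IV, a ratio of 0.992. The left domain was above the middle there, at 323 per Mb, and the right below it, at 273 per Mb. The list of replicate 1 gave 304 per Mb in the domains and 298 per Mb in the middle, and that of replicate 2 gave 296 and 315 per Mb in the domains and the middle. In the pooled list, 69.9% of the members lay in this part of the domains, which makes up 37.8% of their bases. The median distance to the nearest piRNA gene was 1873 bp over the members and 239 bp over the bases of the domains.

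Base composition moved with both measures. The median GC content of a 201 bp window was 27.9% at domain bases within 100 bp of a piRNA gene and 36.3% at those over 500 bp away. Members had a median of 41.3%, the 80 near piRNA genes 35.3% and the other 929 members 41.8%. Summits were rarer in windows of lower GC content in the domains and in the middle of IV, so the classes were compared at like GC content.

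At 30 to 35% GC there were 53.9 summits per Mb within 100 bp of piRNA genes and 159 per Mb over 500 bp away in the domains, beside 153 per Mb over 500 bp away in the middle of IV. At 35 to 40% GC the values were 155 per Mb near piRNA genes and 277 per Mb far from them, beside 347 per Mb in the middle. At 40 to 45% GC they were 310.2 per Mb near and 503 per Mb far, beside 597 per Mb in the middle. Density near piRNA genes was thus below that far from them in each of these classes, and replicate 1 and replicate 2 each gave the same order. At 40 to 45% GC the near class rests on 13 pooled summits.

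**Figure D3:**
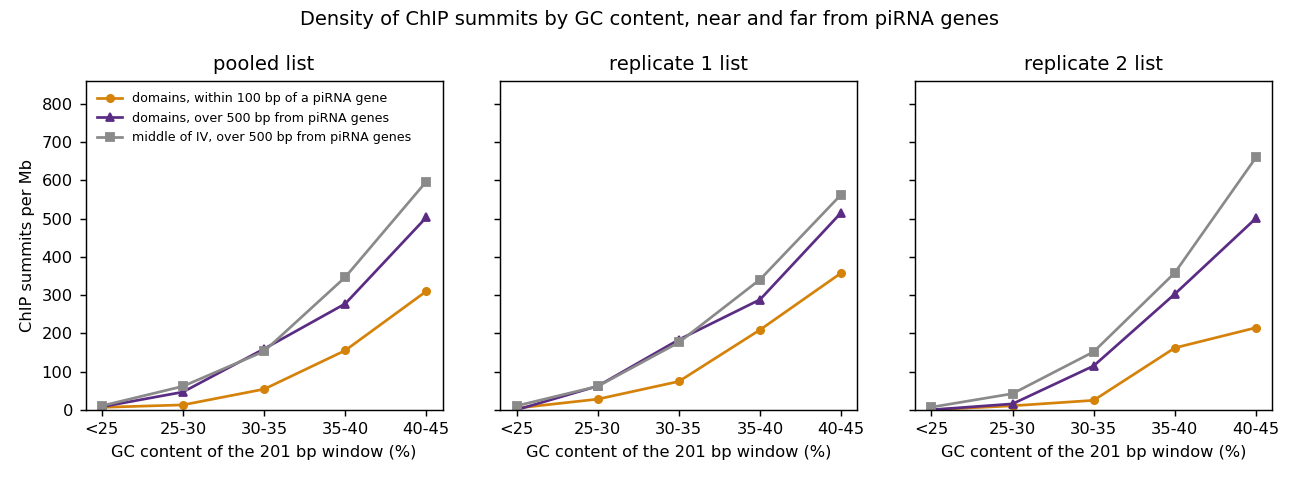
ChIP summits per Mb (y axis) by the GC content of the 201 bp window (x axis, classes of 5 percentage points up to 45%), for each list. Orange circles are domain bases within 100 bp of a piRNA gene, purple triangles domain bases over 500 bp from one, and grey squares bases of the middle of IV over 500 bp from one. All lines climb with GC content, and from 30% GC upwards the orange points lie below the others at each class, for example 53.9 against 159 and 153 per Mb at 30 to 35% in the pooled list.

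If each GC class had the density it has in the middle of IV, the domains would hold 1520 pooled regions, and the 1009 observed are 0.664 of that number. The corresponding ratio was 0.729 for replicate 1 and 0.612 for replicate 2. It was 0.381 for bases within 100 bp of piRNA genes, 0.495 from 100 to 500 bp and 0.822 over 500 bp away. By this measure the right domain, at 0.525, was again below the left, at 0.839. Over 500 bp from piRNA genes it was 0.699 in the right domain and 0.932 in the left. A part of the shortfall at like GC content thus lay away from piRNA genes. Weighting the bases of the domains to the GC content of the members brought the proximity ratio of 0.249 to 0.672. Low GC content and closeness to piRNA genes go together in these domains, and read depth over them was not analysed here.

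Protein-coding starts were sparser in the domains as well, at 152 per Mb against 234 per Mb in the middle of IV. The gene context of summits and of bases is given next. Each summit was assigned to the first of these classes that it met: within 500 bp of a small structured RNA gene (tRNA, snoRNA, snRNA, miRNA or rRNA), within 500 bp of a protein-coding gene start (promoter), in another exon, in an intron, or intergenic. In the domains 20.02% of members and 43.6% of bases were intergenic, while 37.8% of members and 15.1% of bases were exonic. In the middle of IV exons took 39.6% of regions and 26.8% of bases.

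Per Mb of exon the domains were close to the middle, with 408 summits in the domains and 441 in the middle. Intergenic sequence had 74.7 summits per Mb in the domains and 174 per Mb in the middle, a ratio below those of the other classes. Introns had 116 per Mb in the domains and 231 per Mb in the middle, and promoters had 216 per Mb in the domains and 325 per Mb in the middle. Within 500 bp of small structured RNA genes there were 533 per Mb in the domains and 679 per Mb in the middle. Over 500 bp from piRNA genes, however, intergenic sequence of the domains had 165 summits per Mb, beside 176 per Mb in the middle, and within 100 bp of them it had 23.8 per Mb. Introns behaved alike, with 198 per Mb in the domains and 233 per Mb in the middle over 500 bp from piRNA genes, and 42.2 per Mb within 100 bp of them in the domains. Promoters, counted whatever else lay near, took 19.8% of the members and 14.4% of the domains' bases, beside 24.0% of the regions and 21.7% of the bases of the middle.

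**Figure D4:**
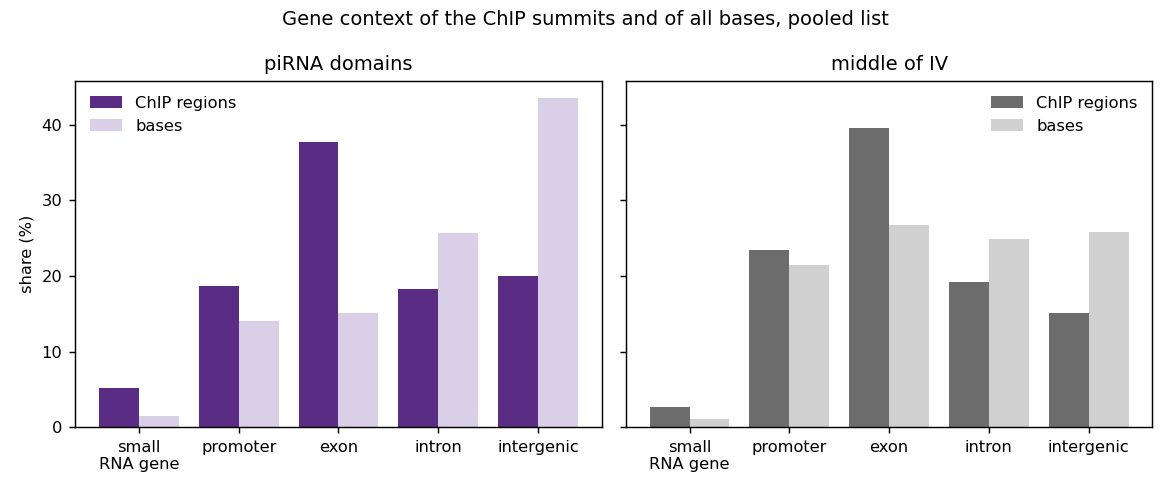
Share in percent (y axis) of pooled ChIP summits (dark bars) and of all bases (light bars) in each gene context (x axis), in the piRNA domains (left panel) and the middle of IV (right panel). In the domains exons hold 37.8% of summits and 15.1% of bases, and intergenic sequence holds 20.02% of summits and 43.6% of bases.

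Regions that were present in the domains were about as high as elsewhere. The median pooled signal was 67.5 in the domains (quartiles 58.1 and 83.2), 68.4 in the middle of IV (58.9 and 82.6) and 67.4 over the whole list. The lowest pooled signal was 50.6 in the domains and 50.5 in both the middle and the whole list, which holds 30000 regions. All parts thus share a floor, and the medians describe only regions above it. In replicate 1 the medians were 51.3 in the domains and 51.8 in the middle, and in replicate 2 they were 20.9 in the domains and 20.4 in the middle. The sign of the difference was thus not the same in the 2 lists. The right domain had the higher median of the pair, 70.4 against 66.0 in the left. Its interquartile range, 58.6 to 88.7, overlapped most of that of the left, 57.6 to 80.8. The highest member reached 279, against 429 in the middle of IV and 818 over the whole list.

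**Figure D5:**
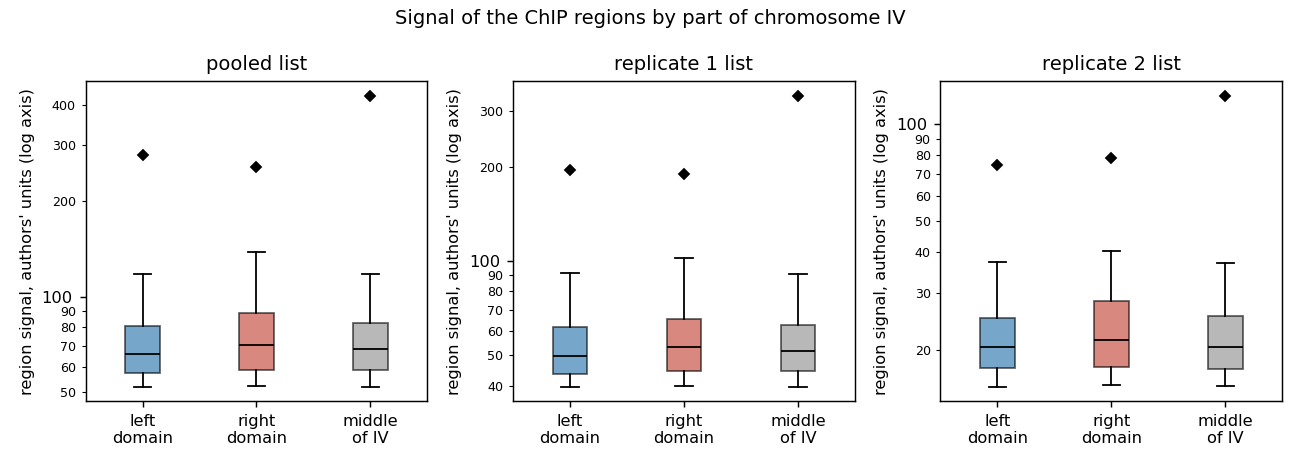
Signal of the regions in the authors' units on a log axis, by part of chromosome IV, for each list. Boxes span the quartiles with a line at the median, whiskers run from the 5th to the 95th percentile and diamonds mark the highest region. The boxes of the left domain, the right domain and the middle of IV overlap in every list, with pooled medians of 66.0, 70.4 and 68.4.

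The limits of the domains were set by position and not by signal. At 4500 kb the first member inside had a signal of 72.7 and the last region outside 54.3. At 7000 kb the last member had 60.1 and the next region 76.0. At 13500 kb the first member had 71.6 and the region before it 53.6, and at 17200 kb the last member had 58.1 and the next region 77.1.

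The authors' optimal list was made by the irreproducible discovery rate (IDR) procedure, which in general weighs how regions rank in repeated lists. How the replicates entered it was not given in the sources used here. It held 37 members, 3.67% (interval 2.59 to 5.02%), where the middle of IV had 45 (2.32%, interval 1.70 to 3.098%) and the whole list 3.02%. The share of the domains was near that of the whole list, and its interval overlapped that of the middle. All 37 ranked 880 or better in the pooled list, while the replicate regions nearest to them ranked from 142 to 1530 in replicate 1 and from 111 to 19393 in replicate 2. A place in the IDR list thus went with a high pooled signal and not always with a high rank in both replicates. The right domain had 22 such members of 445 (4.94%) and the left 15 of 564 (2.66%). Over 500 bp from small structured RNA genes the share was 2.19% in the domains and 1.54% in the middle of IV.

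A summit of both replicate lists lay within 200 bp of 465 members, 46.1% (interval 43.0 to 49.2%), against 49.6% of the regions of the middle of IV and 49.2% of the whole list. Replicate 1 alone matched 83.9% of the members and 82.9% of the regions of the middle. Replicate 2 alone matched 58.6% of the members and 63.6% of the regions of the middle. Matching fell with rank: 89.6% of the members among the 3000 highest regions of the list matched both replicates, and 13.9% of those ranked below 20000 did. In the middle of IV the same classes had 93.4% and 15.2%. The pooled list was called on the reads of both replicates, so these matches are not independent replication.

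The members nearest to piRNA genes matched both replicates in a smaller share of cases than the others, chiefly in the right domain, where their signal was also lower. Of the 80 within 100 bp of one, 26 (32.5%) matched both replicates, against 439 (47.3%) of the other 929 members. The shares were 39.4% near piRNA genes and 44.1% for the others in the left domain, and 27.7% and 51.5% in the right. The 80 and the others were not compared at like signal. One of the 80 (1.25%, interval 0.032 to 6.77%) was in the IDR list, against 36 (3.88%) of the others. Their median signal was 65.7, against 67.8 for the others and 67.4 over the whole list. The order was not the same in both domains: in the left the medians were 66.4 near piRNA genes and 65.9 for the others, with 3.03% and 2.64% in the IDR list, and in the right they were 62.0 near piRNA genes and 71.1 for the others, with 0 of 47 and 22 of 398 in the IDR list. In the list of replicate 1 the medians were 49.5 near piRNA genes and 51.4 elsewhere, and in that of replicate 2 they were 19.2 near piRNA genes and 20.99 elsewhere. The single IDR member among them lay within a tRNA gene, WBGene00022903, whose window is printed above. It had a pooled signal of 193, with 157 in replicate 1 and 38.4 in replicate 2, and the piRNA gene 21ur-5229 was 82 bp from its summit.

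Without the neighbourhood of other gene starts, 66 members lay within 100 bp of a piRNA gene and over 500 bp from every protein-coding start and small structured RNA gene. They were 25 in the left and 41 in the right domain. None was in the IDR list, 20 matched both replicates, and their median signal was 63.8. The highest, beside 21ur-4573 (summit at chrIV:14482980), had 106 in the pooled list, where it ranked 2689, 77.5 in replicate 1 and 29.0 in replicate 2. This summit lay 37 bp from the piRNA gene and in an exon of Y57G11A.4.

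The next in the right domain lay 22 bp from 21ur-15486, between the motif and the piRNA gene printed above, and had 89.6 in the pooled list, 75.5 in replicate 1 and 17.4 in replicate 2. A summit within 21ur-10097, in an exon of sqrd-1, the gene of a sulfide:quinone oxidoreductase, had 84.9 in the pooled list, 63.4 in replicate 1 and 19.4 in replicate 2. In the left domain the highest was 43 bp from 21ur-223 with 84.5 in the pooled list, 63.5 in replicate 1 and 15.9 in replicate 2. In replicate 2 these 3 members ranked from 17782 to 27303 of 30000. The other named members of this kind, beside 21ur-8016, 21ur-8870, 21ur-7908, 21ur-3446, 21ur-2886 and 21ur-10747, had pooled signals from 74.8 to 85.5. Those beside 21ur-8016, 21ur-7908 and 21ur-2886 had no replicate 2 summit within 200 bp.

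Seen from the genes, 107 of the 14204 piRNA genes of the domains (0.753%, interval 0.618 to 0.910%) had a pooled summit within 100 bp, against 10 of 304 in the middle of IV (3.29%, interval 1.59 to 5.97%). In the replicate lists the shares were 1.06% in the domains and 3.95% in the middle for replicate 1, and 0.493% in the domains and 2.30% in the middle for replicate 2. Shares with and without the upstream motif had overlapping intervals: 34 of 4956 with it (0.686%, interval 0.476 to 0.957%) and 73 of 9248 without it (0.789%, interval 0.619 to 0.991%) had a pooled summit. Replicate 1 gave 0.868% with and 1.16% without the motif, and replicate 2 gave 0.626% with and 0.422% without, so the order turned between the lists. piRNA genes in introns had a summit in 1.01% of cases and intergenic ones in 0.453%. Overlapping piRNA genes share a summit, so these genes are not independent of each other.

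The motif itself was found, on either strand, within 100 bp of the summit of 42 members (4.16%), of 1.55% of the regions of the middle of IV and of 1.203% of the whole list. At the 80 members near piRNA genes the share was 21.2%, while 33.2% of all domain bases within 100 bp of a piRNA gene had it in their window. Among the other members it was 2.69%, beside 2.25% of domain bases over 500 bp from piRNA genes. The motif was thus commoner near piRNA genes than away from them, at summits and at bases alike. It is a string match and was not read as a binding site.

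What stood out in signal within the domains was small structured RNA genes, tRNA genes above all. Members within 500 bp of such genes made up 5.15% of the members but 1.57% of the bases, and 16 of the 37 IDR members. In the middle of IV they made up 2.63% of the regions, 1.16% of the bases and 16 of the 45 IDR regions. In both settings a small part of the sequence thus gave a large part of the IDR regions. Their median signal was 114 in the domains and 90.7 in the middle, and 78.8% of them matched both replicates in the domains. For the intergenic members the median was 64.5 and for the promoter members 66.8.

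The domains hold 41 tRNA genes, 25 of which had a pooled summit within 500 bp and 13 an IDR region. In the middle of IV 10 of 12 tRNA genes had a pooled summit and 6 an IDR region. Of 18 snoRNA genes of the domains 10 had a pooled summit and 1 an IDR region, against 17 and 10 of 23 in the middle. Of 16 snRNA genes 8 had a summit and none an IDR region, against 12 and none of 22 in the middle. Of 19 miRNA genes 6 had a summit and 1 an IDR region, against 8 and 1 of 16 in the middle. Most small RNA genes with an IDR region were tRNA genes in the domains and snoRNA genes in the middle of IV. tRNA genes are transcribed by RNA polymerase III, and what an untagged sample gives at them was not tested.

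The 25 members at tRNA genes had pooled signals from 51.8 to 256 with a median of 143, and 12 of their summits lay inside the gene. Of the 13 tRNA genes with an IDR region, 12 have at least 1 identical copy elsewhere in the genome, up to 29 copies in all, so a read wholly within such a gene matches every copy. The exception, WBGene00009206, which lies in the proline dehydrogenase gene prdh-1, had 144 in the pooled list, 99.3 in replicate 1 and 41.2 in replicate 2. Their median distance to a piRNA gene was 523 bp, against 1873 bp over all members, and 12 of the 25 lay within 500 bp of one, although only WBGene00022903 lay within 100 bp.

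The highest member of the right domain was at tRNA gene WBGene00014608, in an intron of the chemoreceptor gene srv-16, with 256 in the pooled list, 190.0 in replicate 1 and 66.2 in replicate 2. Its neighbour WBGene00014611, in an intron of Y105C5B.9, had 229 in the pooled list, 178 in replicate 1 and 49.2 in replicate 2. The pair lie within 1 kb of each other on opposite strands, and each belongs to a set of 21 identical genes. Another cluster farther right held WBGene00014596 (205 in the pooled list, 162 in replicate 1 and 44.98 in replicate 2) and WBGene00014599 (199.9 in the pooled list, 143 in replicate 1 and 57.8 in replicate 2). In the left domain the highest of this kind was WBGene00023192, in an intron of the tyrosinase gene tyr-6, with 213 in the pooled list, 172 in replicate 1 and 42.0 in replicate 2. All of these ranked 1012 or better in both replicate lists.

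The microRNA gene cel-mir-52 belongs to the mir-51 family, which embryos need to develop. Its summit, within the hairpin printed above, had 227 in the pooled list, 178 in replicate 1 and 53.5 in replicate 2. The nearest piRNA gene was 1157 bp away. It was the only one of the 19 miRNA genes of the domains with an IDR region within 500 bp. The middle of IV also had 1, of its 16 miRNA genes.

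Promoters were the largest class among the IDR members of the left domain. There 7 of 15 lay within 500 bp of a protein-coding start, against 2 of 22 in the right. Of all members, the promoter class took 19.7% in the left and 17.5% in the right domain. Its median signal in the left, 65.0, was no higher than the 66.0 of that whole domain. The highest member of both domains lay 319 bp upstream of sqd-1, the worm relative of the Drosophila RNA-binding protein Squid. It had 279 in the pooled list (rank 108), 195 in replicate 1 (rank 142) and 74.5 in replicate 2 (rank 129), and the nearest piRNA gene was 16081 bp away. The 201 bp window at its summit has a GC content of 53.2%, where the median of the members was 41.3%.

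The next, at chrIV:4750083, lay 157 bp upstream of Y17G9B.5 and 305 bp from the start of rpl-20, which encodes a protein of the large ribosomal subunit. It had 252 in the pooled list, 189 in replicate 1 and 66.4 in replicate 2. The promoters of T22D1.3, F29B9.11, Y73B6BL.29 and W03F8.4 had pooled signals of 182, 181, 171 and 153. These 6 members lay from 1084 to 30230 bp from the nearest piRNA gene. Besides the tRNA genes, the other members among the 10 highest of the left domain were exonic, in elo-5, a fatty acid elongase gene, with 160.4, and in ogdh-1, a 2-oxoglutarate dehydrogenase gene, with 152.

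In the right domain several of the highest members lay in introns. A summit in an intron of Y105C5B.5 had 251 in the pooled list, 181 in replicate 1 and 78.6 in replicate 2, the highest replicate 2 signal of either domain. The piRNA gene 21ur-4820 was 197 bp away and 8 piRNA genes lay within 1 kb of it, the densest piRNA setting among the 10 highest members of each domain. Intronic summits in Y65A5A.2 and in zip-7, the gene of a bZIP transcription factor, had 226 and 174. An exon of srt-47, a chemoreceptor gene, had 173, and a summit 183 bp inside the start of Y116A8C.43 had 184. All 20 of the highest members, 10 in each domain, were in the IDR list and matched both replicates within 100 bp. They were picked by pooled signal, which IDR members have high, so their place in that list is not a separate result. The pooled list was called on the reads of both replicates, so neither is their match to the replicate lists.

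IDR members did occur among piRNA genes: 11 of the 37 lay within 500 bp of one, against 2 of 45 in the middle of IV. In the domains 30.1% of all members and 62.2% of bases lay that close, and in the middle 2.63% of regions and 4.34% of bases did. The IDR members thus lay that close in about the same share as all members. Most of the 11 were at tRNA or snoRNA genes, and the next 2 summits were not. An exonic summit in tlp-1, a zinc-finger transcription factor gene, had 157 in the pooled list, 108 in replicate 1 and 51.2 in replicate 2, with 10 piRNA genes within 1 kb. An exonic summit in gln-3, a glutamine synthetase gene, had 155 in the pooled list, 127 in replicate 1 and 26.3 in replicate 2. The names of tlp-1, gln-3 and prdh-1 were chosen after their values were seen.

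A smaller share of genes had a region at their start in the domains than in the middle of IV. Of 941 protein-coding genes starting in the domains, 314 (33.4%) had a pooled summit within 1 kb, against 700 of 1522 (46.0%) in the middle of IV and 47.6% of all protein-coding genes. An IDR region lay that close to 23 genes of the domains (2.44%), against 27 (1.77%) in the middle and 2.5% of all. The share was 37.3% in the left and 29.2% in the right domain.

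The gene families of the domains are given beside the same families elsewhere, with no test between families. All 5 cytosolic ribosomal protein genes had a pooled summit within 1 kb of the start, 2 of them an IDR region: rpl-20, given above, and rpl-29. The region counted for rpl-29 had 151 in the pooled list, 135 in replicate 1 and 18.7 (rank 19393) in replicate 2. Its summit was 608 bp from the start of rpl-29 but only 99 bp from that of thoc-7, in an exon of thoc-7. The middle of IV had 8 of 9 such genes with a summit and the whole genome 76 of 81. Of 83 chemoreceptor genes of the seven-transmembrane families 10 had a summit, none in the IDR list, and the middle of IV had 6 of 39 and the whole genome 388 of 1302. The highest of them, at srv-16, had 118 and lay beside tRNA genes. Of 9 genes of major sperm proteins, which are made in the male germline, 1 had a summit (msp-57, 95.4), and the middle of IV had 0 of 9 and the whole genome 1 of 31.

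Of 6 cuticle collagen genes 4 had a summit, the highest col-110 with 136, beside 11 of 23 in the middle of IV and 102 of 156 in the whole genome. The linker histone gene hil-7, with 120.2, was 1 of 2 histone genes to have one, beside 10 of 22 in the middle and 31 of 81 in the genome. Of 9 C-type lectin genes 3 had a summit, led by clec-178 with 133, beside 5 of 11 in the middle and 130 of 240 in the genome. F-box genes had 2 of 7, beside 2 of 5 in the middle and 100 of 322 in the genome. Nuclear hormone receptor genes had 0 of 5, beside 7 of 17 in the middle and 113 of 269 in the genome. The IDR region nearest to the start of fbxa-83, with 153, lay at the snoRNA gene Y67A10A.14. Counts this small describe the genes that happen to lie in the domains.

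The genes that make piRNAs mostly lie elsewhere in the genome. Of 27 symbols of piRNA transcription and processing factors 24 were matched in the annotation, 2 of them in the domains. These were snpc-3.1, a subunit gene of the complex that activates small nuclear RNA genes, and slfl-4, of the Schlafen-like family that acts in piRNA precursor processing. Neither had a pooled summit within 1 kb of its start. Of the 24, 11 had a summit (45.8%), a share near that of all protein-coding genes, and none had an IDR region. The highest were snpc-4, whose product binds piRNA genes upstream, with 125 in the pooled list (rank 1366), 95.7 in replicate 1 and 41.3 in replicate 2, and snpc-3.4 with 118. The Argonaute gene prg-1 had none.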

How the data were processed

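Young adult worms of 1 group with 2 biological replicates were assayed by ChIP-seq against GFP-tagged ZIM-3. Per the deposited file descriptions, the authors called 30000 regions in each replicate and in the pooled reads, each against a control library, and derived an optimal IDR list from them. The signal of a region is the authors' deposited value, and the summit is the deposited offset in bp. The aligner, caller, IDR threshold and normalization were not given in the sources used here. No read counts were used, so depth is unknown.

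From these lists, regions per Mb, medians and shares with exact Clopper-Pearson intervals were computed in Python 3.11.15 with numpy 2.4.6, pandas 2.3.3 and scipy 1.17.1, on exact counts of bases. Genes came from Ensembl release 115 (WBcel235, the same assembly as ce11) and sequence from the NCBI RefSeq copy of WBcel235. GC content was taken in 201 bp windows. The density ratio and an odds form of the proximity ratio were tested on simulated summits with planted shortfalls. Those summits did not depend on GC content, and the other measures were not tested in this way.

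The members, lists and rules were chosen with earlier results of these data known. Named are the 10 highest members of each domain, the 5 highest in each within 100 bp of a piRNA gene and over 500 bp from other gene starts, up to 3 members per gene list, the regions at each limit and the piRNA pathway genes; any other is said to be chosen later. Alternatives were single replicate lists, the 10000 highest regions, joined summits, other distances, each domain alone and ce10 lists. Comparisons by GC content, tRNA copy counts and the exclusion of sequence near piRNA genes were added after seeing the data. Chromosome IV before 4500 kb and after 17200 kb was left out.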

Additional observations from a re-analysis of the deposited data

How the results depend on the processing

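No paired analysis was possible because there is 1 group. Of 50 alternative values, 25 stayed within the spread between the replicate lists or, for shares of members, within the interval of the main value, 25 moved beyond it, and none that both replicate lists held on one side of 1 changed side. The density ratio of 0.546 was 0.498 to 0.599 without 1 replicate, 0.757 in the left domain alone, 0.404 in the right domain alone, 0.992 over 500 bp from piRNA genes and 0.664 at the GC-class densities of the middle of IV. The median signal ratio of 0.987 was 0.990 to 1.02 without 1 replicate, 1.03 among the 10000 highest regions and 1.03 in the right domain alone, so its direction is not settled. The proximity ratio of 0.249 was 0.183 to 0.313 without 1 replicate, 0.370 at 250 bp, 0.485 at 500 bp and 0.672 with bases weighted to the members' GC content. It was 0.175 among the 10000 highest regions. The promoter share of 19.8% was 19.6 to 20.9% without 1 replicate, 12.9% at 250 bp, 37.7% at 1 kb and 28.8% with any transcript start. The ratio of median signal near piRNA genes to that of other members, 0.969, was 0.912 to 0.964 without 1 replicate, 0.889 among the 10000 highest regions, 0.914 with joined summits and 0.924 at 50 bp. The IDR share of 3.67% was 2.19% over 500 bp from small structured RNA genes and 1.25% within 100 bp of piRNA genes. The share matched in both replicates, 46.1%, was 35.4% at 100 bp, 56.6% at 500 bp, 14.5% among the 10000 highest regions of each replicate list, and 58.6 to 83.9% with 1 replicate list left out of the match. Wider or narrower distances change these shares by construction. For the other moved values the cause was not tested.

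The lists hold no read counts, so stretches without a region are stretches without a called region at an unknown depth. Signal scales differ between lists, and no value is comparable across them. With 2 replicates, 1 group and no untagged sample, the part of the tagged protein in any region was not tested. Sequence composition, piRNA genes and protein-coding genes change together along the domains. Each list is capped at 30000 regions, so a density depends on how many regions the rest of the genome took.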
